A study of Homo sapiens with 6 samples.

Results

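A set of 10 genes of the neuronal microtubule cytoskeleton, TUBB3, TUBB2A, TUBB2B, MAP2, MAP1B, MAPT, DCX, STMN1, STMN2 and DPYSL3, were followed in human embryonic stem cells (hESCs) with and without S6K1. They were chosen by symbol, with earlier results of these data known. All 10 were found among the 61155 gene symbols of the deposited count table. The compared groups were wild-type (WT) cells of H7, an established hESC line, and S6K1-/- H7 hESCs, with 3 libraries of bulk RNA sequencing each. The S6K1-/- cells were a single CRISPR/Cas9 clone (clone #1) made with guides against exons 9 and 11 of RPS6KB1, the gene of S6K1, so that genotype and clone cannot be told apart. Both groups were cultured undifferentiated in TeSR-E8 on Matrigel. The labels also say undifferentiated, but name a knockdown and week 5 as well, and the study's methods were followed here for genotype and stage. That the libraries of a group came from separate cultures is stated nowhere, so p-values measure the spread between these libraries, which may be technical.

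Microtubules are hollow polymers of alpha- and beta-tubulin, and in a growing neuron they fill the axon and dendrites. Vertebrates carry several beta-tubulin isotypes, of which TUBB3, the antigen of the TUJ1 antibody, is the classical neuronal marker and TUBB2A and TUBB2B are abundant in developing brain. Structural microtubule-associated proteins bind and bundle the polymer, with MAP2 best known from dendrites, MAPT (tau) from axons and MAP1B from growing axons. DCX (doublecortin) stabilises microtubules in migrating young neurons, the stathmins STMN1 and STMN2 bind free tubulin and promote disassembly, and DPYSL3 (CRMP4) belongs to the collapsin response mediators that link guidance signals to the cytoskeleton. Several of these genes are also transcribed outside neurons, and STMN1 in particular is a gene of dividing cells.

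Library totals ranged from 21896698 to 24473013 counts, and 19521 genes had enough counts to be tested. Within a group, libraries varied beyond counting error (chi-square over its degrees of freedom, 2.23 to 4.51). RPS6KB1 had 831, 791 and 777 counts in WT and 464, 464 and 438 counts in S6K1-/- hESCs. The cell type of the labels was checked against 10 pluripotency markers, all of which were tested, with a summed level from 6200 to 6340 CPM (counts scaled to the TMM-normalized library size) in WT libraries and from 5850 to 5870 CPM in S6K1-/- libraries. Of 19 neuron markers, 12 reached a mean of 1 CPM in WT, whereas TBR1 was at 0 counts in every library.

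How well a gene can be counted depends on whether its sequence is unique, and TUBB2A and TUBB2B are near copies of each other. Both lie on the minus strand of chromosome 6 of GRCh38 in the GENCODE annotation, TUBB2A from 3153497 to 3157544 and TUBB2B from 3223324 to 3231730. Their coding sequences, 1338 bases each, were identical at 1313 positions (98.1%), whereas TUBB3, on the plus strand of chromosome 16 from 89921392 to 89938761, shared 87.7% of aligned positions with TUBB2A and 87.4% with TUBB2B. The last 90 bases of the coding sequences, stop codon included, are shown because the acidic tail they encode is where beta-tubulin isotypes differ most. Capitals mark the 2 bases at which TUBB2A and TUBB2B differ from each other in this stretch, and TUBB3 has no capitals because its coding sequence has another length (1353 bases). Both marked differences are synonymous (gcT and gcG encode alanine, taA and taG are stop codons), so this stretch of TUBB2A and TUBB2B encodes identical residues.
TUBB2A (chr6:3153863-3153952, minus strand): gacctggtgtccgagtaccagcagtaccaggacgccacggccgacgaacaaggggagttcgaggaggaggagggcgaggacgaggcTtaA
TUBB2B (chr6:3224751-3224840, minus strand): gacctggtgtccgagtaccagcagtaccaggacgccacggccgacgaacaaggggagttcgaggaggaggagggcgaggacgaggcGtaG
TUBB3 (chr16:89935715-89935804, plus strand): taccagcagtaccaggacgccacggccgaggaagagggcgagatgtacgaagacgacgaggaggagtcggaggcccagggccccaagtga
To express this over the exons of a gene, windows of 150 bases, the read length, were taken every 10 bases and aligned to GRCh38. Only merged exons of at least 150 bases gave windows, and no window spanned a splice junction. An exact copy elsewhere on a primary sequence was found for 81 of 251 windows of TUBB2A (32.3%), with 73 of them in TUBB2B, and for 72 of 372 windows of TUBB2B (19.4%), with 70 of them in TUBB2A. For TUBB3 the number was 4 of 624 windows. STMN1, STMN2, DCX, MAP2, MAP1B and DPYSL3 had no window with such a copy, so reads within the exons covered do not face this ambiguity at the length of a single read. Reads in shorter exons or across junctions were not examined.

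Further limits touch single genes of the group. Of the canonical transcript of TUBB3, 1584 exon bases (92.8%) are also exon of a readthrough gene on the same strand (ENSG00000198211), so reads there belong to both genes in the annotation. MAPT, on the plus strand of chromosome 17 from 45894527 to 46028334, had an exact copy on an alternate contig for 1471 of its 1615 windows (91.1%). Whether the authors' alignment index held alternate contigs, and how their counting treated reads of more than 1 gene or place, is not given in the sources used here. KANSL1, the neighbour of MAPT and chosen after its values were seen, is a chromatin gene in broad use by cells, has copies for 98.4% of its windows and was counted at only 24 to 103 in WT and 26 to 31 in S6K1-/- libraries. The low counts of MAPT and TUBB3 given below are therefore what the table lists, and no absence of either transcript can be read from them.

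Of the 9 genes that passed the filter on low counts, STMN2 and DCX were lower in S6K1-/- than in WT hESCs at an adjusted p under 0.001 (the study's threshold), and no gene of the group was higher. Among all genes tested the same rule called 2.54% lower and 1.42% higher (3.96% in either direction). MAP2 was lower at 0.05 only, where 8.31% of all genes were lower and 5.47% higher. STMN1, TUBB2A, TUBB2B, MAP1B, DPYSL3 and TUBB3 did not pass either threshold, although 2 of the group were higher and 5 lower at an unadjusted p under 0.05 in edgeR's test, as were 11.8% and 14.5% of all genes. DESeq2's Wald test called 1 gene of the group lower and 0 higher at 0.001, and 2.32% of the genes it adjusted lower and 1.62% higher. For 7 of the 9 genes WT and S6K1-/- libraries had no overlap, 5 lower and 2 higher in S6K1-/- hESCs, compared with 30.7% of all genes tested (16.7% lower and 14% higher). The median log2 fold change of the 9 genes was -0.10, beside 0.00 over all genes tested. Because the genes were chosen with earlier results known, setting them beside all genes is a description and not a test. In bulk RNA, fewer cells that express a gene and less of its RNA per cell cannot be told apart.

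**Figure D1:**
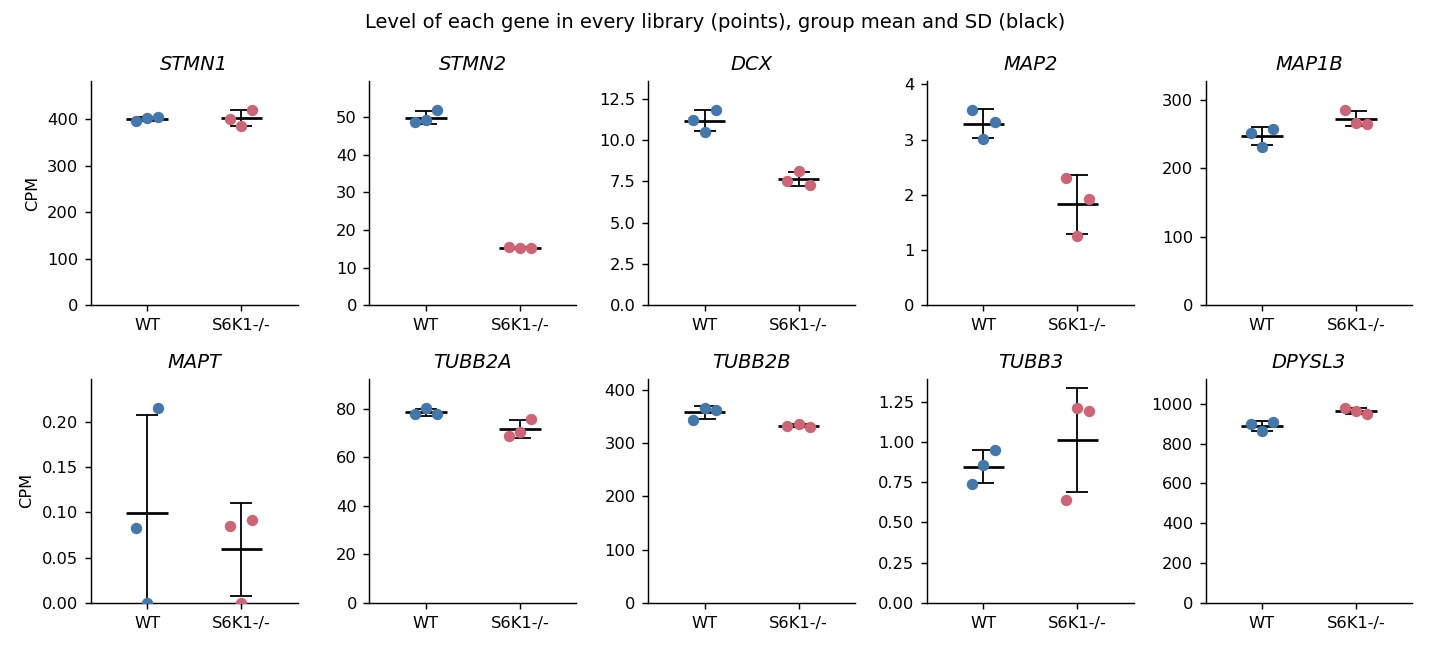
Level in CPM (vertical axis from 0, separate scale per gene) in each of the 3 WT libraries (blue) and 3 S6K1-/- libraries (red), with the group mean and SD in black. STMN2, DCX and MAP2 show a clear gap between the groups, STMN1 and TUBB3 overlap, and MAPT rests on 0 to 5 counts per library.

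**Figure D2:**
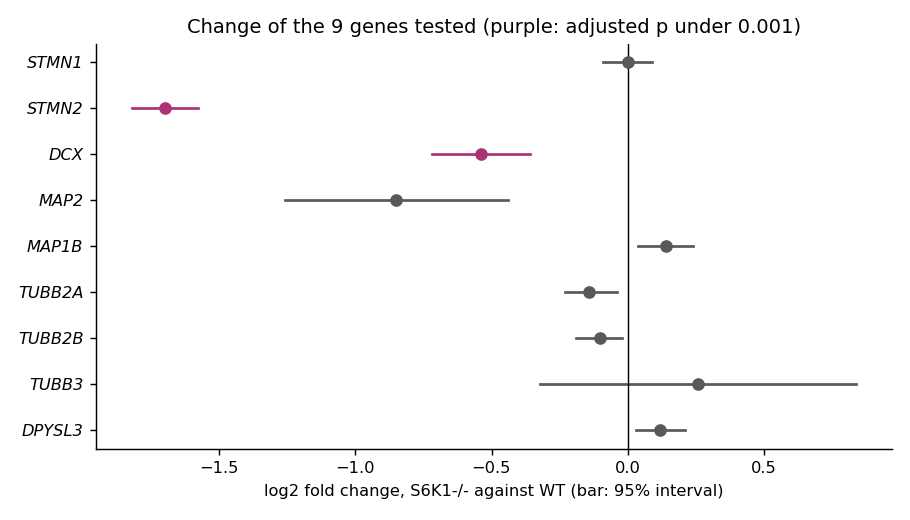
Log2 fold change of S6K1-/- against WT hESCs (horizontal axis) for the 9 genes tested, with its 95% interval as a bar. STMN2 (-1.70) and DCX (-0.54) are in purple, past an adjusted p of 0.001, and the other genes are in grey.

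Among the stathmins, the neuron-enriched STMN2 fell steeply while for the more broadly used STMN1 the groups overlapped. STMN2, on the plus strand of chromosome 8 from 79611117 to 79666158, had 1184, 1209 and 1204 counts in WT and 367, 364 and 330 counts in S6K1-/- hESCs. Each S6K1-/- library was far below each WT library, and within a group the libraries lay close together. The level went from 49.9 ± 1.71 CPM in WT to 15.3 ± 0.260 CPM in S6K1-/- hESCs (SD, n = 3 each), which is 3.25-fold lower. The log2 fold change was -1.70 (standard error, SE, 0.0562, adjusted p = 1.41e-11 in edgeR's fit after Benjamini-Hochberg adjustment), and STMN2 took place 16 of 19521 when genes were ordered by p. Leaving out any 1 library, its log2 fold change stayed between -1.71 and -1.67 and the adjusted p of edgeR was at most 2.39e-09.

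STMN1, on the minus strand of chromosome 1 from 25884181 to 25906991, had 9648, 9911 and 9385 counts in WT and 9412, 9207 and 9110 counts in S6K1-/- hESCs. The groups overlapped, at 401 ± 4.23 CPM and 401 ± 17 CPM (SD, n = 3 each). Its log2 fold change was 0.00 with a 95% interval from -0.09 to 0.09 (adjusted p = 0.996 in edgeR's fit), so the interval leaves out a change as large as that of STMN2, although it does not show equality. STMN1 outnumbered STMN2 by 8.05 ± 0.220 counts per STMN2 count in WT and by 26.2 ± 1.25 in S6K1-/- hESCs (SD, n = 3 each). The lowest S6K1-/- library stood at 25.3 and the highest WT library at 8.20.

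Among the microtubule-binding proteins, DCX was lower, MAP2 was lower at the weaker threshold, and MAP1B had a small positive difference that was not called. DCX, on the minus strand of chromosome X from 111293779 to 111412429, had 272, 257 and 273 counts in WT and 177, 194 and 159 counts in S6K1-/- hESCs. All S6K1-/- libraries were below all WT libraries. The mean was 11.1 ± 0.651 CPM in WT and 7.65 ± 0.411 CPM in S6K1-/- hESCs (SD, n = 3 each). The log2 fold change was -0.54 (SE 0.0857, adjusted p = 4.91e-04 in edgeR's fit after Benjamini-Hochberg adjustment). This call was close to the threshold. When libraries were left out one by one, only the fit without WT replicate 2 kept it (adjusted p = 4.74e-04 from edgeR), and in the others the adjusted p ran up to 0.00521. DESeq2's Wald test gave an adjusted p of 0.00123.
RefSeq (GRCh38.p14) gave 3 promoter windows for DCX, each from 250 bases before to 50 after a transcript start, and the most upstream is shown because DCX is the lower gene of the group for which a promoter entry was at hand.
DCX promoter (chrX:111412143-111412442, minus strand): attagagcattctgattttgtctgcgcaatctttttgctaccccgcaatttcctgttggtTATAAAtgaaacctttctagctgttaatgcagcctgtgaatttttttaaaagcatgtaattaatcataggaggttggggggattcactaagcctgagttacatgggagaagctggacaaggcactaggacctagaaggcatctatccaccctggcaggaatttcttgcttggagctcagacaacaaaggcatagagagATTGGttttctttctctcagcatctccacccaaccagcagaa
Capitals mark a TATA box (TATAAA), which begins 190 bases before the start, and a CCAAT box (CCAAT) read on the opposite strand, 8 bases after it. On either strand, 11.5% of the 35116 RefSeq promoters of this length hold the first motif and 34.6% the other. The letters of a GC box (GGGCGG, in 45% of promoters), an E-box (CANNTG, 68.7%), an octamer (ATGCAAAT, 1.77%) and the left part of the RE1 element (TTCAGCACC, 0.376%) are not in this window. The other 2 windows of DCX, at 111412048 to 111412347 and 111411097 to 111411396, both hold an E-box, and the former also a CCAAT box. RefSeq entries were matched for 8 of the 10 genes, not for STMN2 and MAPT, and none of their 17 windows held the octamer or the RE1 letters. A match or its lack is a description of letters only.

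MAP2, on the plus strand of chromosome 2 from 209424047 to 209734147, had 86, 74 and 77 counts in WT and 54, 30 and 42 counts in S6K1-/- libraries. The groups did not overlap, but S6K1-/- replicate 1 stood nearer to WT than replicate 2. The level was 3.29 ± 0.262 CPM in WT and 1.83 ± 0.531 CPM in S6K1-/- hESCs (SD, n = 3 each), so that its log2 fold change was -0.85 (SE 0.191, adjusted p = 0.00735 in edgeR's fit). The 95% interval ran from -1.26 to -0.44. Without the filter on low counts the adjusted p from the same test was 3.27e-05, past 0.001. That fit gave smaller adjusted p beyond MAP2, with 982 genes lower in place of 496 and STMN2 at 1.3e-146 (edgeR). DESeq2's Wald test gave MAP2 an adjusted p of 0.0191, past 0.05 but not 0.001.
MAP1B, on the plus strand of chromosome 5 from 72107234 to 72209565, had 6141, 5715 and 5975 counts in WT and 6701, 6395 and 5779 counts in S6K1-/- hESCs. After scaling, each S6K1-/- library was above each WT library, at 273 ± 11.1 CPM against 247 ± 13.1 CPM (SD, n = 3 each). The difference was small, with a log2 fold change of 0.14 (95% interval from 0.04 to 0.24), and missed the thresholds with an adjusted p of 0.0595 in edgeR's fit. It passed 0.05, though not 0.001, with DESeq2's Wald test (adjusted p = 0.0291) and without the filter on low counts (adjusted p = 0.0169 from edgeR).
MAPT had 2, 0 and 5 counts in WT and 2, 0 and 2 counts in S6K1-/- hESCs. It did not pass the filter. Fitted without the filter it had a log2 fold change of -0.70 (adjusted p = 0.743 in edgeR's fit over 37733 genes), which rests on 7 counts in WT and 4 in S6K1-/- hESCs.

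The 3 beta-tubulins of the group did not pass the threshold. TUBB2A had 1893, 1975 and 1807 counts in WT and 1618, 1681 and 1648 counts in S6K1-/- hESCs, with no overlap between 78.6 ± 1.48 CPM and 71.6 ± 3.61 CPM (SD, n = 3 each). TUBB2B had 8379, 8994 and 8423 counts in WT and 7784, 8052 and 7196 counts in S6K1-/- hESCs, with no overlap between 358 ± 11.7 CPM and 333 ± 3.08 CPM (SD, n = 3 each). Both stood slightly lower in S6K1-/- libraries, with percent changes of -8.98% and -6.92% in mean level. Their log2 fold changes were -0.14 (adjusted p = 0.0598) and -0.10 (adjusted p = 0.103, both in edgeR's fit). Because these genes may share reads, as the windows above show, their counts were also summed, which gave a log2 fold change of -0.11 (adjusted p = 0.0824 from edgeR's test). TUBB2A passed 0.05 without S6K1-/- replicate 3 (adjusted p = 0.0306 from edgeR), and with library totals only, TUBB2A (adjusted p = 0.0321) and TUBB2B (adjusted p = 0.0476, both from edgeR) passed 0.05 but not 0.001. TUBB2B gave 4.55 ± 0.118 counts per TUBB2A count in WT and 4.66 ± 0.251 in S6K1-/- hESCs (SD, n = 3 each), and these ratios overlapped.
TUBB3 had 18, 21 and 22 counts in WT and 15, 29 and 26 counts in S6K1-/- hESCs. The S6K1-/- libraries lay on both sides of the WT libraries, at 1.01 ± 0.326 CPM against 0.847 ± 0.104 CPM (SD, n = 3 each). The log2 fold change of 0.26 had a 95% interval from -0.32 to 0.84 (adjusted p = 0.605 in edgeR's fit), so that at this depth neither a modest fall nor a larger rise could be told from no change. Without S6K1-/- replicate 1 its log2 fold change was 0.51, without S6K1-/- replicate 2 it was 0.10 and without S6K1-/- replicate 3 it was 0.14.

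DPYSL3, on the minus strand of chromosome 5 from 147390808 to 147510068, was the most counted gene of the group. It had 21884, 21165 and 21060 counts in WT and 22995, 23104 and 20686 counts in S6K1-/- hESCs. After scaling, the S6K1-/- libraries were above the WT libraries without overlap, at 965 ± 14.5 CPM against 889 ± 24.5 CPM (SD, n = 3 each). The log2 fold change of 0.12 (95% interval from 0.03 to 0.21) did not pass the threshold, with an adjusted p of 0.0694 in edgeR's fit. DESeq2's Wald test gave 0.00819, past 0.05 but not 0.001.

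**Figure D3:**
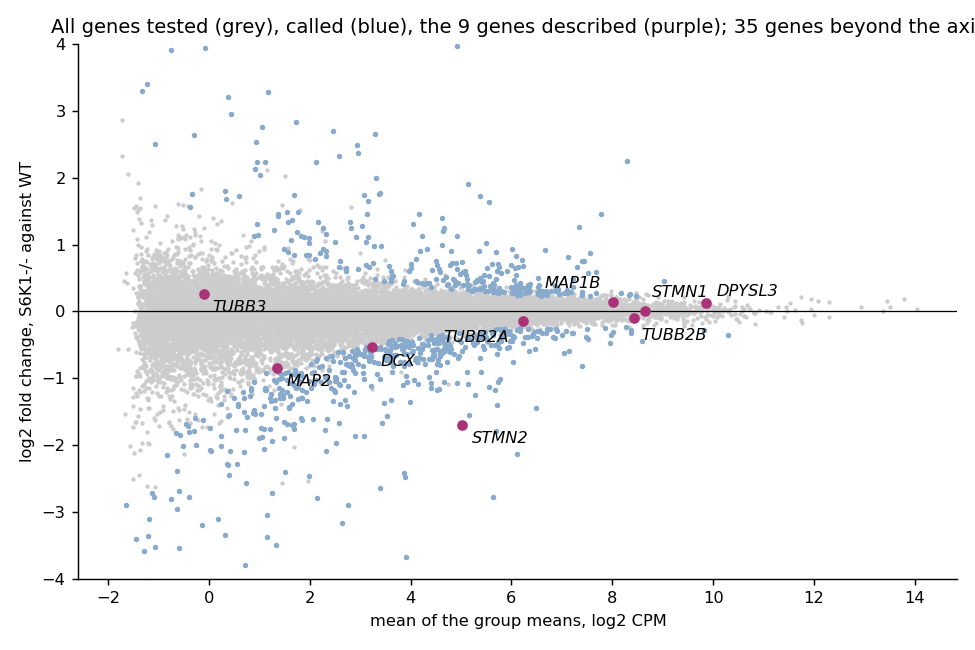
Log2 fold change of S6K1-/- against WT hESCs (vertical axis) by mean level (log2 CPM, horizontal axis) for 19521 genes tested (grey), those past an adjusted p of 0.001 (blue) and the 9 genes described (purple), with 35 genes beyond the axis limit of 4. STMN2 lies well below the cloud at its level, DCX at its lower edge, and STMN1, TUBB2B, MAP1B and DPYSL3 lie near 0 at the high end.

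Levels were also compared between genes, per kilobase of exon and library size (RPKM, computed here from the counts and the merged exon length in GENCODE). In WT hESCs the order was DPYSL3 with 124 ± 3.42 RPKM, TUBB2B with 86.0 ± 2.87, STMN1 with 64.2 ± 0.698, TUBB2A with 27.0 ± 0.497, STMN2 with 24.4 ± 0.833 and MAP1B with 19.7 ± 1.05 RPKM (SD, n = 3). DCX followed with 1.09 ± 0.0638, MAP2 with 0.277 ± 0.0220 and TUBB3 with 0.114 ± 0.0140 RPKM, and MAPT came last. The libraries of neighbours in this order, down to TUBB3 and MAPT, did not overlap. In S6K1-/- hESCs STMN2, with 7.51 ± 0.113 RPKM, stood below MAP1B with 21.7 ± 0.878 RPKM (SD, n = 3 each), and the other ranks were as in WT. The upper ranks depend on the length used. Over the length of the canonical transcript, STMN1 came first in WT with 278 ± 3.02 RPKM, before TUBB2B with 186 ± 6.21 and DPYSL3 with 162 ± 4.47 RPKM, and TUBB3 passed MAP2. Bowtie2 does not align across splice junctions, and the share of 150-base windows of the canonical transcript that lie within 1 exon ran from 68.8% in STMN1 and 69.9% in DPYSL3 to 92.3% in DCX and 93.4% in MAP1B, which bears on levels between genes but is the same for both groups.

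Relatives of these genes were looked at next. Of 12 relatives, MAP1A, MAP1S, MAP4, STMN3, STMN4, CRMP1, the other DPYSL genes and the doublecortin-like kinases, 10 were tested, and edgeR's test called 0 lower and 0 higher at 0.001, where all genes gave 2.54% and 1.42% (1 lower and 2 higher at an unadjusted p under 0.05, where all genes gave 14.5% and 11.8%, and 0 and 0 with DESeq2's Wald test). With so few genes a count of 0 is near that background, and 1 relative was called lower with library totals only, without the filter on low counts and without WT replicate 2. The smallest p belonged to DCLK1, a kinase with a doublecortin domain, which had 1278, 1229 and 1268 counts in WT and 1008, 1042 and 965 counts in S6K1-/- hESCs (log2 fold change -0.26, adjusted p = 0.00152 in edgeR's fit). DPYSL2 (CRMP2), a relative of DPYSL3, had a log2 fold change of 0.15 (adjusted p = 0.0271 from edgeR). STMN3, the other stathmin tested, went from 35.4 ± 1.69 to 34.0 ± 0.895 CPM (SD, n = 3 each), and its log2 fold change was -0.06 with a 95% interval from -0.18 to 0.06.

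Of 19 other tubulin genes, 14 were tested, with 1 lower and 0 higher at 0.001 in edgeR's test (3 lower and 1 higher at an unadjusted p under 0.05, where all genes gave 14.5% and 11.8%, and 1 and 1 with DESeq2's Wald test, against 2.32% and 1.62%), and their median log2 fold change was -0.02. The lower gene was TUBA4A, an alpha-tubulin, with 1025, 1195 and 1037 counts in WT and 720, 734 and 733 counts in S6K1-/- hESCs, and its log2 fold change was -0.51 (SE 0.0620, adjusted p = 3.78e-05 in edgeR's fit). TUBA1B, the most counted alpha-tubulin, had a log2 fold change of 0.04 (adjusted p = 0.570 from edgeR). TUBB, a widely used beta-tubulin, was listed at only 5 to 11 counts per library, and all of its 349 exon windows had an exact copy on an alternate contig, so the beta-tubulin total of these cells cannot be formed from the table. TUBA3C was at 0 counts in every library.
Of 21 genes that fold or modify tubulin, 19 were tested, with 0 lower and 1 higher (2 lower and 4 higher at an unadjusted p under 0.05 in edgeR's test, where all genes gave 14.5% and 11.8%, and 0 and 2 with DESeq2's Wald test, against 2.32% and 1.62%). TTLL4, a tubulin glutamylase, rose from 89.4 ± 3.38 to 107 ± 4.22 CPM (SD, n = 3 each), with 0.26 as its log2 fold change (adjusted p = 7.40e-04 in edgeR's fit). Leaving out any 1 library, this call was kept only without WT replicate 1 and lost in the other 5 fits (adjusted p up to 0.00743 in edgeR's fit), and it was lost when only library totals were used. ATAT1, the alpha-tubulin acetyltransferase, was listed at 0 in every library, and all of its 286 exon windows had an exact copy on an alternate contig.
Of 33 other microtubule regulators, such as plus-end, severing and dynein-linked genes and tau kinases, 32 were tested. At 0.001 edgeR called 0 lower and 0 higher, where all genes gave 2.54% and 1.42%. At an unadjusted p under 0.05 its test gave 6 lower and 0 higher, where all genes gave 14.5% and 11.8%. DESeq2's Wald test called 0 and 0. The smallest p belonged to MAP7D2, with a log2 fold change of -0.90 (adjusted p = 0.00612), and to CLIP2, with -0.17 (adjusted p = 0.0109, both in edgeR's fit).

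The neuron markers went in both directions, and the summed level of the list overlapped between groups. Of 15 neuron markers tested among 19, edgeR called 2 lower and 0 higher at 0.001 (8 lower and 3 higher at an unadjusted p under 0.05, where all genes gave 14.5% and 11.8%, and 1 and 0 with DESeq2's Wald test, against 2.32% and 1.62%). The 3 that were higher at the unadjusted p were ELAVL2, NEFM and NEFL, with log2 fold changes of 0.18, 0.14 and 0.11. In all, 11 of the 15 were below 0, as were 50.6% of all genes, with a median log2 fold change of -0.27. SYN1, a synaptic vesicle protein, had 127, 129 and 138 counts in WT and 82, 83 and 66 counts in S6K1-/- hESCs, and its log2 fold change was -0.71 (adjusted p = 7.96e-04 from edgeR). This call was lost whichever of the 6 libraries was left out (adjusted p from 0.00191 to 0.0072 in edgeR's fit). The summed level of the 19 markers was from 328 to 348 CPM in WT and from 339 to 349 CPM in S6K1-/- libraries, most of it from SYT1, NEFL and NEFM, none of which was called. The regulators NEUROD1 and NEUROG2 were at 0 to 2 counts per library. The part of neuron-like cells in the values of STMN2, DCX and MAP2 was not tested.
Of 10 neural progenitor markers, 7 were tested, with 1 lower and 1 higher at 0.001, where all genes gave 2.54% and 1.42% (2 lower and 2 higher at an unadjusted p under 0.05 in edgeR's test, against 14.5% and 11.8%). VIM, an intermediate filament gene in broad use, had a log2 fold change of -0.55 (adjusted p = 6.22e-06), and PAX6, a regulator of neural and eye progenitors, one of 0.76 (adjusted p = 2.69e-04, both in edgeR's fit). The call of PAX6 was lost without WT replicate 1 and without S6K1-/- replicate 2 or 3 (adjusted p up to 0.00228 in edgeR's fit). Their summed level was from 813 to 816 CPM in WT and from 758 to 789 CPM in S6K1-/- libraries. Of the 10 pluripotency markers, 1 was lower and 0 were higher at 0.001, where all genes gave 2.54% and 1.42%. At an unadjusted p under 0.05 in edgeR's test 3 were lower and 1 higher, where all genes gave 14.5% and 11.8%. The gene lower at 0.001 was DNMT3B, a de novo DNA methyltransferase, with a log2 fold change of -0.35 (adjusted p = 4.88e-05 from edgeR).
Proliferation genes were listed because STMN1 is a gene of dividing cells. Of the 10, edgeR called 0 lower and 0 higher at 0.001, where all genes gave 2.54% and 1.42%. At an unadjusted p under 0.05 its test gave 1 lower and 2 higher, where all genes gave 14.5% and 11.8%. DESeq2's Wald test called 0 and 0. The median log2 fold change of the 10 genes was 0.03. The smallest p belonged to BUB1, a mitotic checkpoint kinase, with a log2 fold change of -0.19 (adjusted p = 0.00620), and to TOP2A, a DNA topoisomerase of cycling cells, with 0.14 (adjusted p = 0.0282, both in edgeR's fit).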

How the data were processed

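Bulk RNA sequencing of 3 WT and 3 S6K1-/- hESC libraries was analysed. The authors trimmed reads of 150 bases with Trim Galore 0.6.5, aligned them to GRCh38 with Bowtie2 2.4.5, which is not splice-aware, and counted them with featureCounts. They deposited raw counts per gene symbol, without normalization. The annotation release and strand setting are not given in the sources used here. The kit was strand-specific. A deposited table of the authors' own comparison (fold changes, statistics and p-values from DESeq2 1.37.4) was not used.

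The counts were filtered with filterByExpr, TMM-normalized and tested with edgeR 4.0.16 (quasi-likelihood, genotype only, R 4.3.3), with Benjamini-Hochberg adjustment over 19521 genes. The threshold of 0.001 is the study's. Standard errors came from the log2 fold change and the F statistic. CPM used TMM-scaled library sizes. The steps were tested on simulated data. Alternatives were DESeq2 1.42.0 (size factors, Wald test), library totals, other filters, a replicate block, each library left out, a threshold of 0.05 and summed TUBB2A and TUBB2B.

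Exons came from GENCODE 44, and windows were aligned with minimap2 2.31 to 455 sequences of GRCh38, 261 of them alternate contigs. The members and gene lists were chosen with earlier results of these data known. Named were the 10 members, RPS6KB1 and, per list, up to 4 genes of smallest adjusted p past 0.001, or else the 2 of smallest p. Other named genes were chosen after their values were seen. The values of 1 named gene are not reported here.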

Additional observations from a re-analysis of the deposited data

How the results depend on the processing

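STMN2 kept its direction and its side of the threshold in every fit run, with a log2 fold change from -1.72 to -1.67, and RPS6KB1 did so from -0.77 to -0.72. Of 10 genes with a fitted change, DCX was the one whose call was lost. It was -0.53 (adjusted p = 0.00123) with DESeq2's Wald test and -0.54 (adjusted p = 0.00192 from edgeR) with the replicate block, and from -0.58 to -0.49 with each library left out. MAP2 passed at 0.05 and, at -0.85, without the filter on low counts. STMN1, near 0, changed sign to -0.02 with library totals only, to 0.00 with at least 10 counts in every library and with the replicate block, and ran from -0.02 to 0.03 with each library left out. The causes were not tested. The scaling alternatives moved the median of all genes by 0.007 and -0.021.

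At an adjusted p under 0.05, 1622 genes were lower and 1067 higher, which is 8.31% and 5.47% of the 19521 tested. Lower and higher, the lists then held 3 and 0 of 9 tested neuronal microtubule genes and 2 and 1 of 14 other tubulins. They held 0 and 3 of 19 folding or modifying genes and 1 and 2 of 10 relatives. Regulators gave 4 and 0 of 32 and neuron markers 6 and 0 of 15. Progenitor, pluripotency and proliferation genes gave 2 and 2 of 7, 3 and 1 of 10, and 1 and 1 of 10. Without the filter on low counts, 982 of the 37733 genes fitted were lower and 591 higher. Among them were 3 lower neuronal microtubule genes, 3 lower neuron markers, 1 higher other tubulin and 2 higher folding or modifying genes. There were also 1 lower relative, 2 lower regulators, 2 lower progenitor markers and 1 lower and 1 higher proliferation gene. DESeq2's Wald test called 1 lower gene of the group, 1 higher other tubulin, 2 higher folding or modifying genes and 1 lower neuron marker. DESeq2's size factors gave 2 higher folding or modifying genes, and library totals only gave 0 of these and 1 lower relative. With each library left out, from 313 to 445 genes were lower and from 175 to 235 higher. The lowest count of lower genes came without S6K1-/- replicate 3 (313) and the lowest of higher genes without S6K1-/- replicates 1 and 2 (175 and 179). The group then held 1 to 2 lower genes, the folding or modifying list 0 to 1 higher, the relatives 0 to 1 lower, the neuron markers 1 lower in each fit and the progenitor markers 0 to 1 higher.

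With the replicate number as a block, 423 genes were lower and 241 higher, with 1 lower gene of the group and 1 lower neuron marker, and MAP1B passed 0.05 (adjusted p = 0.0386 from edgeR). Replicate numbers were not taken as pairs: no shared batch is named in the labels, and same-numbered libraries correlated at 0.018, 0.00174 and 0.0316 in their deviations from the group means. WT replicate 1 correlated best with S6K1-/- replicate 2 (0.0343).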

Other observations

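Pseudogenes and antisense genes were looked at because their reads can be shared with a named gene. Of 39 symbols of tubulin and STMN1 pseudogenes and of genes antisense or intronic to the group, 19 had any count and 5 were tested. EdgeR's test called 0 of them lower and 0 higher (0 lower and 1 higher, TUBBP1, at an unadjusted p under 0.05, where all genes gave 14.5% and 11.8%, and 0 with DESeq2's Wald test). TUBBP1, a processed beta-tubulin pseudogene, was counted at 933 to 1078 in WT and 983 to 1403 in S6K1-/- libraries (log2 fold change 0.22, adjusted p = 0.148 in edgeR's fit).

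ELAVL4, which encodes a neuronal RNA-binding protein and was chosen after its values were seen, was counted 12, 12 and 9 times in WT hESCs and 0 times in every S6K1-/- library, and did not pass the filter. Its more counted relative ELAVL2 went the other way. It had 887, 954 and 949 counts in WT and 1001, 1006 and 1031 in S6K1-/- hESCs (log2 fold change 0.18, adjusted p = 0.053 in edgeR's fit). NDE1, a dynein regulator, was listed at 0 or 1 in 5 libraries and at 10 in S6K1-/- replicate 2, and all of its 587 exon windows had an exact copy on an alternate contig.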
